A study of Mus musculus with 12 samples.

Results

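The interleukin-1 and interleukin-18 family was followed in the mouse oviduct through 5 mRNAs on an inflammation panel. Members were chosen by gene name, as the endogenous probes called Il1a, Il1b, Il1rn, Il18 and Il18rap, which are 5 of the 185 endogenous probes. All 5 were found. Female CD1 mice, an outbred stock aged 6 to 8 weeks, were injected intraperitoneally on the day of estrus with 100 µL of phosphate-buffered saline with either 0 µg (control), 2 µg (the low dose) or 10 µg of LPS (the high dose), in groups of 4 mice. LPS is lipopolysaccharide, a cell wall component of Gram-negative bacteria, here from E. Coli serotype 055:B5. Oviducts were taken 24 h later, so each value describes a whole organ at 1 time point. The nCounter assay hybridises a capture and a reporter probe to every target RNA and counts the reporters one by one, with no PCR step. The comparisons ask how LPS changed these mRNAs and whether the 2 doses differed.

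Interleukin-1 is made in 2 forms, alpha and beta, which bind the same receptor (Il1r1 with its partner Il1rap) and signal through the adaptor Myd88 to NF-kB and MAP kinases. Il1rn encodes the interleukin-1 receptor antagonist, which occupies that receptor without signalling. Interleukin-18 is a related cytokine that many epithelia and macrophages make at rest, and like interleukin-1 beta it is made as a precursor that an inflammasome protease cleaves. Il18rap encodes the signalling partner of the interleukin-18 receptor, found on natural killer cells, T cells and some other leukocytes. Since cleavage and release follow translation, an mRNA count says nothing of the active cytokine.

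Endogenous counts per lane ranged from 98258 to 196878, and 62.3% to 90.2% of the fields of view were counted. The 2 lanes under 75% are control mice 2 and 4. Lanes were scaled by 6 reference genes, and a scaled count is the raw count divided by a scale that ran from 0.773 to 1.25. The mean plus 2 SD of a lane's 8 negative control probes, its negative control limit, lay between 3.16 and 6.78 raw counts. A gene was tested if it exceeded this limit in at least 4 of the 12 lanes, as 165 of 179 inflammation genes did. Each fold change is from edgeR's quasi-likelihood fit over these 165 genes, with p-values adjusted over all of them and a threshold of 0.05. The panel holds 0 of 6 listed markers of oviduct epithelium, so the tissue label could not be checked against them.

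The high dose raised Il1b and Il18rap above control, by 2.42-fold and 2.99-fold. Il1rn, the antagonist, lay 2.24-fold above control and did not pass without mouse number as a block (edgeR adjusted p = 0.0559). It passed with that block over all 12 lanes (edgeR adjusted p = 0.0314). The block was chosen from these same counts, and the labels give no pairing. Il18 lay 1.19-fold above control, close to the shift of the median gene, and Il1a stayed near the background of the assay. Without the block, the fit used throughout unless stated, 2 of 5 members (40%) were called higher and 0 lower. In that fit 22.4% of all 165 genes tested were called higher. With the block 3 of 5 members were called higher, and 34 of all 165 genes. The median log2 fold change was 1.16 over the members and 0.24 over all genes tested. At the low dose 0 of 5 members passed, against 2.42% of all genes.

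**Figure D1:**
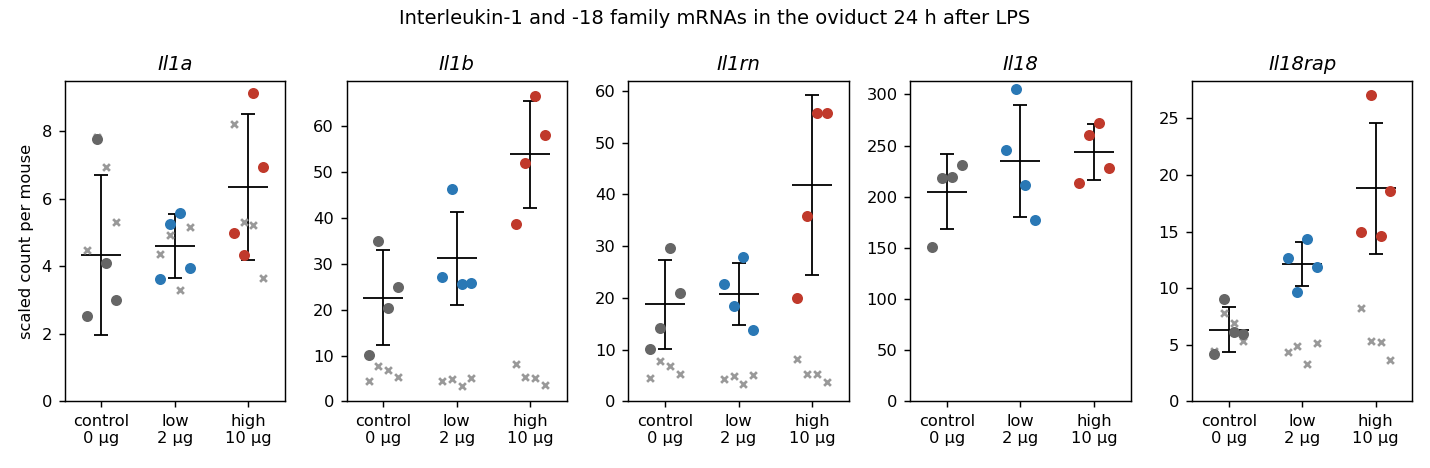
Scaled counts of the 5 members in each mouse (points), with the group mean and SD (black, n = 4), against the dose of LPS in µg on the horizontal axis. Grey crosses give each lane's negative control limit on the same scale and are left out for Il18. Il18rap lies in order of dose without overlap between groups, Il1b separates the high dose from control, and Il1a lies among the crosses.

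Il1b encodes interleukin-1 beta, the form that activated macrophages and neutrophils release. Its scaled counts were 10.1, 34.9, 20.5 and 24.9 in control mice 1 to 4, with a mean of 22.6 ± 10.3 (SD, n = 4). They were 27.2, 46.4, 25.5 and 25.8 in low-dose mice 1 to 4, a mean of 31.2 ± 10.1. In high-dose mice 1 to 4 they were 38.7, 52.0, 66.7 and 58.0, a mean of 53.9 ± 11.7. All high-dose mice thus exceeded all control mice. Such a separation held for 25.5% of the genes tested (0.606% the other way). The low dose overlapped both other groups. The log2 fold change of high dose over control was 1.27 ± 0.34 (SE, edgeR adjusted p = 0.0176). With lanes scaled by their total count it was 0.71 with an adjusted p of 0.0515, and without high-dose mouse 3 it was 1.15 with 0.0606. By total count the 2 groups also overlapped. The total includes the genes tested, and it was 98258 to 126058 in control lanes and 128258 to 196878 at the high dose. On that scale the median log2 fold change of all genes was -0.34, against 0.24 with the reference genes. Low dose over control gave 0.49 ± 0.35 (adjusted p = 0.567), and high over low dose 0.79 ± 0.33 (0.185, with an unadjusted p of 0.0369).

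Il1a encodes interleukin-1 alpha, which can act from the cell that makes it without processing. Its raw counts were 3, 6, 4 and 3 in control mice, 4, 6, 7 and 4 at the low dose and 4, 4, 10 and 6 at the high dose, in the order of mice 1 to 4. They exceeded the negative control limit in 0 of 4 control lanes, 2 of 4 low-dose lanes and 2 of 4 high-dose lanes. The fitted log2 difference of high dose over control, 0.62 ± 0.37 (SE, edgeR adjusted p = 0.300), therefore rests on counts near the background, and no fold change is given. A change in Il1a was not detectable at this depth.

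Il1rn encodes the receptor antagonist. It stood at 10.1, 14.2, 29.7 and 20.9 in control mice 1 to 4, a mean of 18.7 ± 8.54 (SD, n = 4). In low-dose mice it stood at 22.6, 18.4, 27.9 and 13.9, a mean of 20.7 ± 5.99. In high-dose mice 1 to 4 it stood at 19.999, 35.8, 55.7 and 55.7, a mean of 41.8 ± 17.3. High-dose mice 2, 3 and 4 lay above every control mouse, while mouse 1 lay within the control range. The log2 fold change of high dose over control was 1.16 ± 0.39 (SE, edgeR adjusted p = 0.0559), with a 95% interval of 0.30 to 2.02. With mouse number as a block over all 12 lanes, low-dose mice included, it was 1.17 and passed (edgeR adjusted p = 0.0314). It also passed with DESeq2 (0.0264), with genes above the limit in all 12 lanes only (0.0487), and without high-dose mouse 1 (0.0146) or control mouse 3 (0.0248). It did not pass with limma-voom (0.0578) or under the remaining alternatives, where the adjusted p reached 0.208 by total count. High over low dose gave 1.01 ± 0.39 (adjusted p = 0.143, unadjusted p = 0.0235), and low dose over control 0.15 ± 0.40 (0.886).

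Il18 was well above background in every lane. Its scaled counts were 151.0, 218.7, 218.9 and 231.4 in control mice 1 to 4, with a mean of 205.0 ± 36.5 (SD, n = 4). Low-dose mice had 245.3, 305.4, 211.2 and 177.4, a mean of 234.8 ± 54.6, and high-dose mice 213.7, 260.2, 272.2 and 228.5, a mean of 243.6 ± 27.2. The 3 groups overlapped in every pairing. High dose over control gave a log2 fold change of 0.25 ± 0.18 (SE, edgeR adjusted p = 0.397) with a 95% interval of -0.16 to 0.66. Low dose over control gave 0.20 ± 0.18 (0.713) and high over low dose 0.05 ± 0.18 (0.935, 95% interval -0.35 to 0.46). The sign at the high dose followed the scaling: by TMM Il18 stood at -0.0034, by DESeq2 size factors at -0.03 and by total count at -0.32. The median of all genes stood at -0.01, -0.04 and -0.34 in these fits, close to Il18 in each.

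Il18rap, the receptor partner for interleukin-18, was the member with the largest fold change in each comparison with control. Its raw counts were 5, 7, 6 and 6 in control mice 1 to 4, 14, 11, 18 and 12 at the low dose, and 12, 25, 16 and 16 at the high dose. Scaled, these are 4.22, 9.06, 6.14 and 5.98 in control mice (mean 6.35 ± 2.01, SD, n = 4), 12.7, 9.63, 14.3 and 11.9 at the low dose (12.1 ± 1.96), and 15.0, 27.1, 14.6 and 18.6 at the high dose (18.8 ± 5.80). No mouse of one group reached the range of the next, so the 3 groups stood in order of dose. That full order was found in 2 of 165 genes, 1.21%, the other being Cxcl10, an interferon-induced chemokine chosen for mention after its values were seen. With raw counts, positive controls or total count as the scale, Il18rap still separated the high dose from control, but the 2 doses overlapped, and by total count the low dose also overlapped control.

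High dose over control gave a log2 fold change of 1.58 ± 0.28 for Il18rap (SE, edgeR adjusted p = 0.00189). Of the alternatives that tested it, each kept this call, with values from 1.00 by total count to 2.02 with background subtracted. Only 2 of 4 control lanes exceeded their negative control limit, against 4 of 4 in both dosed groups, and the control side of this fold is therefore close to background. Low dose over control gave 0.96 ± 0.29 (edgeR adjusted p = 0.163, unadjusted p = 0.0069). All 4 low-dose mice exceeded all 4 control mice, a separation found in 3.64% of genes tested (0.606% the other way). The low-dose difference passed with positive controls as the scale (1.10, adjusted p = 0.0314). High over low dose gave 0.62 ± 0.26 (0.175), with 14.5% of genes fully separated between the doses.

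**Figure D2:**
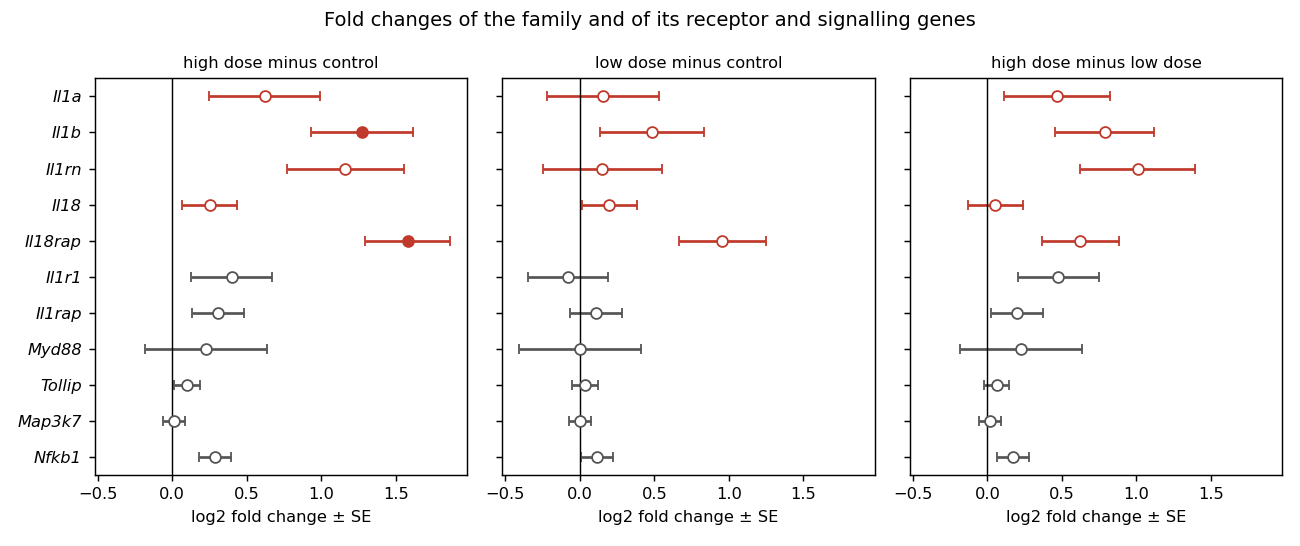
Log2 fold changes with SE for the 5 members (red) and the 6 receptor and signalling genes of interleukin-1 on the panel (grey), for high dose over control, low dose over control and high over low dose. Filled points passed an adjusted p of 0.05 in the fit without mouse number as a block, which only Il1b and Il18rap did, both for high dose over control.

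Between the doses 0 of 5 members passed with edgeR, against 6.67% of all 165 genes. The same 0 of 5 passed with DESeq2 and limma-voom, which called 20 and 16 of all 165 genes. At an unadjusted p below 0.05 there were 3 members, Il1b, Il1rn and Il18rap, each higher at the high dose, as were 36 of all 165 genes. For low dose over control the count by edgeR, DESeq2 and limma-voom was 0 of 5, where they called 4, 7 and 2 of all 165 genes. With edgeR 1 member, Il18rap, was higher at an unadjusted p below 0.05, as were 21 of all 165 genes. The median log2 fold change of the members was 0.62 for high over low dose, against 0.21 for all genes, and 0.20 for low dose over control, against 0.08 for all genes. The 3 comparisons share groups of mice, so they are not independent of each other.

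**Figure D3:**
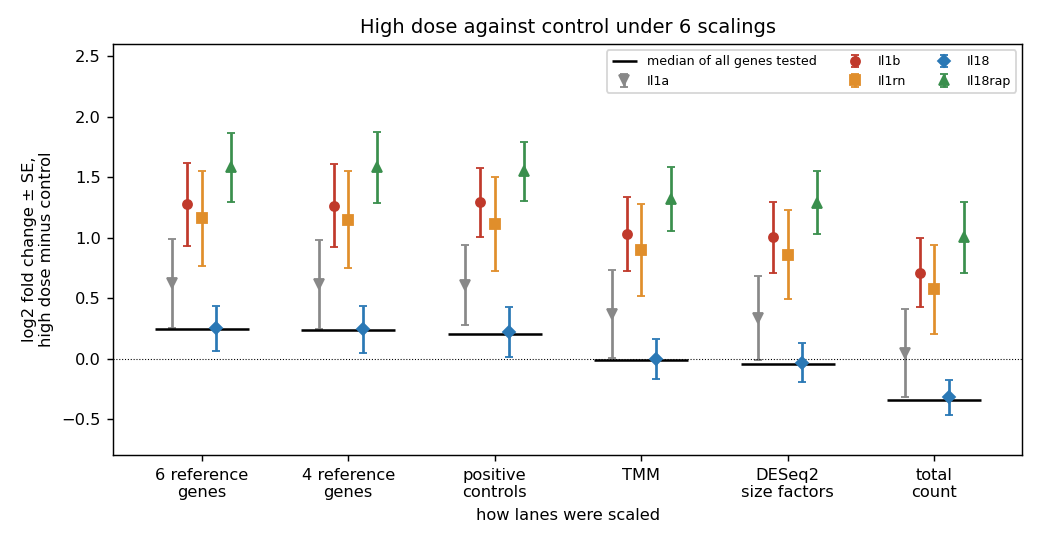
Log2 fold changes with SE of the 5 members for high dose over control (vertical axis) under 6 ways of scaling the lanes (horizontal axis), with the median of all genes tested as a black line. The members shift down together with that median, from 0.24 on the scale of 6 reference genes to -0.34 by total count, and Il18 stays near it.

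Ratios of 2 probes in the same lane do not depend on the lane's scale. Probes differ in efficiency, so only the change of a ratio between groups is read. The log2 ratio of Il18rap over Il18 was -3.73 ± 0.40 at the high dose and -5.05 ± 0.31 in control mice (SD, n = 4 each), a difference of 1.31. All 4 high-dose mice, from -4.22 to -3.26, lay above all 4 control mice, from -5.27 to -4.59. Il18rap exceeded the negative control limit in only 2 of 4 control lanes, so the control side of this ratio is close to background. The exact permutation test, two-sided, gave p = 0.0286, the smallest that 4 against 4 mice allow, and 0.257 after adjustment over the 9 ratio tests. A ratio at that p could not pass on its own after adjustment, so the adjusted value does not decide. At the low dose the ratio was -4.26 ± 0.52, above control by 0.79 (exact p = 0.0571, adjusted 0.257).

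The ratio of antagonist to cytokine showed no such separation. The log2 ratio of Il1rn over Il1b was -0.45 ± 0.39 at the high dose and -0.25 ± 0.77 in control mice (SD, n = 4 each, exact permutation p = 0.629, adjusted 0.707). It was -0.59 ± 0.65 at the low dose, and all 3 groups overlapped. Single mice ranged from -1.34 in low-dose mouse 2 to 0.54 in control mouse 3. Il1b over Il1a differed by 0.73 between high dose and control (exact permutation p = 0.114, adjusted 0.321), with Il1a near the background.

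**Figure D4:**
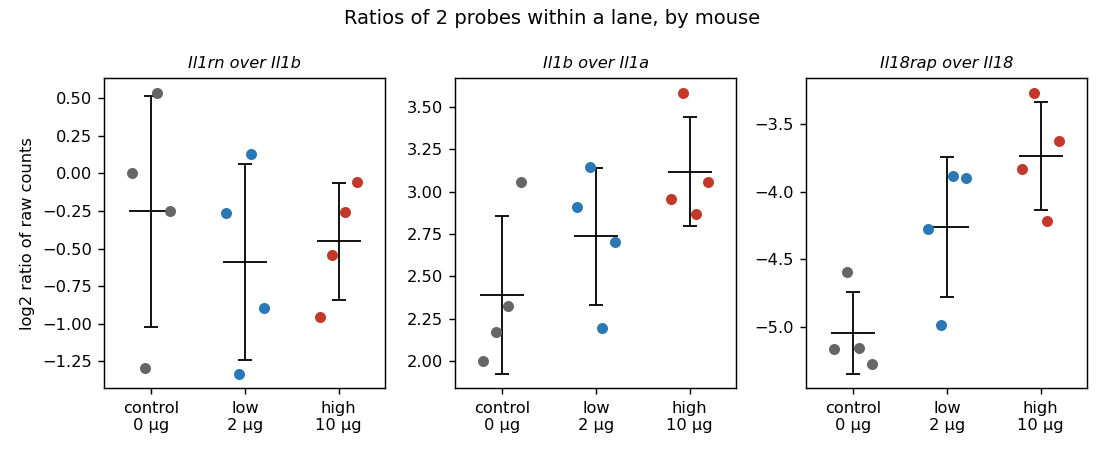
Log2 ratios of raw counts of 2 probes within each lane (points), with the group mean and SD (black, n = 4), by dose of LPS in µg. Il18rap over Il18 separates the high dose, from -4.22 to -3.26, from control, from -5.27 to -4.59, where Il18rap is close to background. The other 2 ratios overlap between groups.

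The mice of a group did not vary alike for all members. Low-dose mouse 2 had the highest Il1b (46.4) and Il18 (305.4) of its group and the lowest Il18rap (9.63). Control mouse 1 had the lowest value of its group for all 5 members, and its lane scale of 1.19 was the highest among controls. Across the 12 lanes, with group means removed, log2 scaled counts of Il1b and Il18 correlated at r = 0.81, and those of Il18 and Il18rap at 0.19. Lanes share the scale of all their genes, so these values are a description and carry no test.

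Among the 148 other genes above the negative control limit in at least 8 lanes, those most like Il1b over the 12 lanes included Nos2, the inducible nitric oxide synthase (r = 0.94, and 0.88 with group means removed), and the complement protein C2 (0.93 and 0.82). C2 (0.84 and 0.94), the chemokine receptor Ccr3 (0.83 and 0.91) and Nos2 (0.82 and 0.85) were most like Il18. The macrophage growth factor Csf1 was most like Il1rn (0.83 and 0.69). Il18rap was most like Il8rb, a neutrophil chemokine receptor now called Cxcr2 (0.92 and 0.51), the chemokine Cxcl10 (0.83 and 0.02) and the neutrophil chemokine Cxcl5 (0.83 and 0.54). The values of Il18rap thus fell once group means were removed, most of all with Cxcl10. Il8rb met the rule of 8 lanes only through the dosed groups, with 0 of 4 control lanes above the limit. Il18rap and Cxcl5 exceeded it in 2 of 4 control lanes, so these correlations include values near background.

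Receptor and signalling genes of interleukin-1 were measured well above background. Of the 36 genes listed for receptors, processing and signalling, 6 are on the panel, and 0 of 6 passed with edgeR in any of the 3 comparisons, where 22.4% (high dose over control), 2.42% (low dose over control) and 6.67% (high over low dose) of all genes were called higher. With 6 genes, such a count is not a result about the pathway. Il1r1, the signalling receptor, had a scaled count of 620.8 at the high dose and 471.1 in control mice, which is 0.40 ± 0.27 on the log2 scale (SE, edgeR adjusted p = 0.344). High-dose mouse 2 had 993.1, the highest Il1r1 value of the 12 mice, and high-dose mouse 1 had 392.5. Il1rap, its partner, stood at 0.31 ± 0.17 (adjusted p = 0.247) and the adaptor Myd88 at 0.23 ± 0.41 (0.759). Tollip, an inhibitor of the pathway, stood at 0.10 ± 0.09, and the kinase Map3k7 at 0.01 ± 0.07.

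Nfkb1, which encodes an NF-kB subunit, stood at 0.29 ± 0.11 (SE, edgeR adjusted p = 0.0810) for high dose over control, and was the only one of these 6 below 0.05 unadjusted and the only one called by DESeq2. Limma-voom called 0 of 6. Their median at the high dose was 0.26 (log2), against 0.24 for all genes. Of 16 MAP kinase and AP-1 genes, 0 passed by edgeR or limma-voom at the high dose, where edgeR called 22.4% of all genes higher, and their median was 0.10 (log2). DESeq2 called 1, Mapkapk2, a kinase that stabilises cytokine mRNAs, and it was the 1 gene below 0.05 unadjusted.

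Genes that interleukin-1 is known to induce are also induced by LPS itself, so their source cannot be told apart here. Of the 10 listed genes on the panel, 5 rose at the high dose with edgeR: Ccl7, Ccl2, Cxcl1, Cxcl5 and Cxcl2, chemokines for monocytes and neutrophils, where 22.4% of all genes rose. Their log2 fold changes ran from 4.04 ± 0.55 for Ccl7 to 2.05 ± 0.58 for Cxcl2 (SE), and Cxcl2 exceeded the negative control limit in only 4 of 12 lanes. In control mice Ccl7 and Cxcl5 exceeded it in 2 of 4 lanes and Cxcl2 in 0 of 4. The other 5, Il6, Cxcl3, Csf2, Csf3 and Nos2, did not pass with edgeR, while limma-voom also called Nos2. The median of the 10 was 1.49. Between the doses 3 of 10 rose with edgeR (Ccl2, Ccl7 and Cxcl1), where 6.67% of all genes did, and DESeq2 also called Cxcl5.

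Of the genes tied to interleukin-18, interleukin-12 and interferon gamma, 7 are on the panel and 5 were tested. At the high dose 3 of 5 rose with edgeR, where 22.4% of all genes tested rose: Cxcl9 and Cxcl10, chemokines induced by interferon gamma, by 5.40 ± 0.94 and 3.92 ± 0.45, and Il15, a growth factor for natural killer and T cells, by 0.81 ± 0.16 (log2, SE). Cxcl9 exceeded the negative control limit in only 2 of 4 control lanes, so the size of its fold rests on a control side close to background. Ifng, the cytokine that interleukin-18 and interleukin-12 induce, exceeded the negative control limit in 3 of 12 lanes and Il12a in 2 of 12, so neither was tested. Il12b (0.91 ± 0.47) and Fasl (0.98 ± 0.51) did not pass.

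In a whole oviduct, more cells of a type and more RNA per cell cannot be told apart. Of 3 genes listed for neutrophils on the panel 2 rose for high dose over control with edgeR, Il8rb and Itgb2, where 22.4% of all genes tested rose. The summed scaled counts of the 3 were 196.2 to 356.7 at the high dose and 77.6 to 124.7 in control mice. Itgb2, which is not particular to neutrophils, made up most of these sums, with means of 234.3 at the high dose and 99.8 in control mice. The means of Il8rb were 46.8 and 4.45. At the low dose 1 of 3 rose, Il8rb, where 2.42% of all genes did, with sums of 125.1 to 281.8. Il8ra exceeded the negative control limit in 4 of 12 lanes and Il8rb in 8, and both did so in 0 of 4 control lanes. Of 4 macrophage and monocyte markers 3 rose for high dose over control, C1qa, C1qb and C3ar1, against the same 22.4%, and 0 of 4 passed at the low dose or between the doses. They had sums of 4034 to 5058 at the high dose, 1357 to 5114 at the low dose and 1470 to 2077 in control mice. Of 6 T and natural killer cell markers 1 rose for high dose over control, Il23r, a share no higher than the 22.4% of all genes, with sums of 97.5 to 109.0 at the high dose, 67.7 to 128.6 at the low dose and 49.8 to 84.8 in control mice. In that list Ccr4, Cd40lg and Fasl exceeded the limit in 4, 5 and 6 of 12 lanes. The markers that rose did so in the same comparison as Il1b and Il18rap, and their part in those results was not tested. The other 7 of these 13 markers did not pass with edgeR, among them Ccr2 (0.17 ± 0.42), Cd4 (0.41 ± 0.41) and Lta (0.01 ± 0.34, log2, SE).

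The promoters of the 2 members that rose are shown, and they differ in which of the searched strings of letters they hold. These strings were chosen after the sequences were seen, so the difference is no result about the 2 promoters. Both are RefSeq windows of build GRCm38.p6, from 250 bases before the start to 50 after it, printed 5′ to 3′ along the gene's strand, and RefSeq gave a window for each of the 5 members. Capitals mark TATAAA in Il1b (chr2:129371090-129371389, minus strand) and GAGGAAGT, a core that the myeloid factor PU.1 binds, in Il18rap (chr1:40515112-40515411, plus strand).
Il1b: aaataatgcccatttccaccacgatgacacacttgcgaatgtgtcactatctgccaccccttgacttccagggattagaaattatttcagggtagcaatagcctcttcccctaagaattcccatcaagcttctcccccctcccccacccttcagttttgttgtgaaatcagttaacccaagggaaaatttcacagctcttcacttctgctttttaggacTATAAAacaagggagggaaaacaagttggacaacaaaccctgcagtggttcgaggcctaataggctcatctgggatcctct
Il18rap: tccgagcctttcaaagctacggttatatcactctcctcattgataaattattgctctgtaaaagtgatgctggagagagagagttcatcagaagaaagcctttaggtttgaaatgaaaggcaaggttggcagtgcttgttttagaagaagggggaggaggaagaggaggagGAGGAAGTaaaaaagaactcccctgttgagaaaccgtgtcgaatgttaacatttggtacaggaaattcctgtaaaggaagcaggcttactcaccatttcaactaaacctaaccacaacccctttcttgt

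The TATAAA of Il1b begins 31 bases before the start, and the GAGGAAGT of Il18rap 79 bases before it. Searched on both strands, TATAAA lies in 13.6% of 32851 such windows, GAGGAAGT in 3.20%, TGANTCA (AP-1) in 7.81% and the NF-kB consensus in 8.46%. Il1a, next to Il1b on chromosome 2, has a TATAAA at 32 bases and TGACTCA at 12 bases before its start. Of 3 Il1rn windows, 1 holds TGAGTCA. Another holds TATAAA on the opposite strand, 14 bases after its start. The Il18 window also holds it on the opposite strand, 175 bases before its start. No NF-kB consensus lies in any of the 7 windows of the 5 members, which says only that these letters are not there. The same holds for GAGGAAGT, which is absent from the Il1b window. The motifs were chosen after the sequences were seen. Il18rap lies next to Il18r1, which encodes the other chain of the interleukin-18 receptor, on chromosome 1.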

How the data were processed

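The authors deposited 1 table of raw counts per probe, treated as estimated counts since a line for binding density in the same columns has decimals, although all probe values are whole. What the instrument software did is not stated here. Groups and mouse numbers came from the sample titles. The lane scale was the geometric mean of Cltc, Gapdh, Gusb, Hprt1, Pgk1 and Tubb5, and the test was that of edgeR 4.0.16 under R 4.3.3, all 12 lanes in 1 fit, with Benjamini-Hochberg adjustment over 165 genes. SEs came from the F statistic. The procedure was tested on simulated data. DESeq2 1.42.0, limma-voom (limma 3.58.1), the series' own test (one-way over the groups, then least significant difference, unadjusted), other scales, filters and left-out mice were alternatives. No lanes were duplicates (over 18 pairs within groups, chi-square divided by its degrees of freedom was at least 15.2).

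Same-numbered mice of the high dose and control deviated together in all 4 pairs (r = 0.11 to 0.39 over 165 genes), so the fit with those pairs is given beside the one without where it changes a call. This rests on the data and not the labels, and only 4 of 8 mice correlated best with their own number. In the other 2 comparisons they were not. The members and lists were chosen with earlier results of these data known. Named are the members, listed receptor and signalling genes, list members that passed, and the 3 genes most alike by Pearson correlation of log2(scaled count + 1). Genes named beyond this were chosen after their values were seen, and some that it names are not reported here.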

Additional observations from a re-analysis of the deposited data

Results flagged for a closer look

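Of 42 groups of 4 values checked (5 members, 6 receptor and signalling genes and 3 ratios, in 3 groups each), a single mouse stood apart in 3. By chance about 1 in 20 groups, here 2.1, would show this. Low-dose mouse 2 had an Il1b scaled count of 46.4, with the others at 25.5 to 27.2, and without it low dose over control moved to 0.23 (log2) from 0.49. Control mouse 1 had an Il18 scaled count of 151.0, with the others at 218.7 to 231.4. Its raw Il18 count of 179 lay within the raw range of the other controls, 169 to 232, and its count was 195.1 on the scale of the positive controls. Low-dose mouse 4 had a Myd88 scaled count of 910.6, with the others at 298.1 to 379.2.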

How the results depend on the processing

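The count of 2 members called for high dose over control was 2 or 3 in all alternatives but 2: it was 1 by total count, where Il1b was lost, and 1 to 3 with single mice left out, with the 1 without high-dose mouse 3. With the replicate block 3 members passed, Il1rn being the third. For low dose over control the count of 0 became 1, Il18rap, with positive controls as the scale and 1 by the series' own test, and stayed 0 with any mouse left out. Between the doses it was 0 in every alternative. With the filter on all 12 lanes Il1a and Il18rap were not tested. The cause of the lost or gained calls was not tested. No ratio test passed after adjustment under any alternative. With 4 pairs of mice, or without control mice 2 and 4, none could pass. In the other alternatives a ratio could not pass on its own, even at the smallest p that its mice allow. In low dose over control and high over low dose, pairs of equal number had r = -0.13 to 0.28 and -0.16 to 0.59, and 5 and 4 of 8 mice correlated best with their own number. The block left 0 members there.

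Over all genes at the high dose, 37 calls (37 higher, 0 lower) became 57 by TMM (34 and 23), 59 by DESeq2 size factors (34 and 25) and 92 by total count (30 and 62). The 4 calls at the low dose became 7 with DESeq2, 2 with limma-voom, 1 with only those 2 groups fitted, 21 by the series' own test, 0 without control mice 2 and 4, and 1 to 14 with 1 mouse left out. The 11 between the doses became 20 with DESeq2, 28 by the series' own test, 45 by total count (9 higher and 36 lower, against 11 and 0), 7 with background subtracted, positive controls or without control mice 2 and 4, and 6 to 14 with 1 mouse left out. Il1a and Il18rap did not exceed the negative control limit in 8 and 2 of 12 lanes, which limits the precision of their fold changes.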

Other observations

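Beyond the family, 23 other genes for interleukins and their receptors, taken by name, are on the panel, and 16 were tested. At the high dose 3 of 16 rose with edgeR, Il8rb, Il23r and Il15, where 22.4% of all genes rose. Il10, an anti-inflammatory cytokine, had a mean scaled count of 7.01 at the high dose and 2.599 in control mice, a log2 difference of 1.35 ± 0.53 (SE, edgeR adjusted p = 0.0884), and it exceeded the negative control limit in 6 of 12 lanes. Il6ra, the interleukin-6 receptor, stood at 549.1 at the high dose and 442.4 in control mice (0.31 ± 0.14, adjusted p = 0.131). Il2, Il3, Il11 and Il22 exceeded the limit in 1, 0, 0 and 2 of 12 lanes. Il10 and Il6ra were chosen after their values were seen.

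Myd88 scaled counts were 873.6 in control mouse 2, 910.6 in low-dose mouse 4 and 817.6 in high-dose mouse 4, and 298.1 to 525.8 in the other 9 mice.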
